A study of Homo sapiens with 41 samples.

Results

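Among the 8720 Elongin A peaks called by CUT&RUN with a goat antibody in DLD1 cells, 391 lay at the promoters of long noncoding RNA (lncRNA) genes. A peak was counted when its summit, the position of highest signal, lay within 1 kb of a transcription start site (TSS) of an annotated lncRNA gene and more than 1 kb from every protein-coding TSS. These 391 peaks were 4.48% of the list (Wilson 95% interval 4.07 to 4.94%). Another 2295 peaks lay within 1 kb of a protein-coding TSS, and 6034 lay away from both kinds of start site. The choice used position and gene type only, so peak strength, overlap with the other lists and sequence were not part of it.

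DLD1 is a human colon cancer cell line. All cells used here received no siRNA and were fixed with 1% formaldehyde. The goat antibody list came from 2 replicates against 1 goat IgG library, a further CUT&RUN list from 1 sample taken with a mouse antibody against 1 mouse IgG library, and the ChIP-seq list from 1 sample against 1 input library. CUT&RUN cuts and releases the DNA next to an antibody-bound protein, whereas ChIP-seq pulls fixed and sheared chromatin down with the antibody. The strength of a peak is the fold enrichment that the authors' peak caller assigned to its summit over the local control background. The lists give neither read totals nor separate values for the 2 replicates, so the depth is unknown, no value has a replicate error, and the intervals below cover counting error only. Markers gave little information on the cell line, since 3 of 12 colon epithelium markers had a goat antibody peak within 1 kb of a TSS (KRT8, KRT18 and HNF4A), against 0 of 10 markers of other cell types, and beside 11.3% of all protein-coding genes. CDX1, CDX2, VIL1 and EPCAM had none.

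Elongin A is the largest subunit of Elongin, a complex that binds RNA polymerase II (RNAPII) and was identified by its stimulation of elongation in vitro. Most lncRNAs are RNAPII transcripts, and some of their genes host small nucleolar RNAs (snoRNAs) or microRNAs (miRNAs) that are cut out of the primary transcript. Small nuclear RNAs (snRNAs) such as U1, U2 and U5 are the RNA parts of the spliceosome and are made by RNAPII from short genes with promoters of their own kind.

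The summits differed widely in sequence. The following windows of 100 bp around the summit are from hg19, read 5′ to 3′ on the strand of the lncRNA, with CpG dinucleotides in capitals. They run from the CpG-dense summit of LINC03015 (chr7:149348-149447, minus strand) through MIR17HG (chr13:92001460-92001559, plus strand) and MALAT1 (chr11:65265392-65265491, plus strand) to summits without a CpG in the window, those of ZFAS1 (chr20:47896650-47896749, plus strand), ENSG00000262413 (chr17:79825401-79825500, plus strand) and HNRNPK-AS1 (chr9:86587566-86587665, plus strand).
LINC03015: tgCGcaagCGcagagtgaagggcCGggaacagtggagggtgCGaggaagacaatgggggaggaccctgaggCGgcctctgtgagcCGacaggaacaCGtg
MIR17HG: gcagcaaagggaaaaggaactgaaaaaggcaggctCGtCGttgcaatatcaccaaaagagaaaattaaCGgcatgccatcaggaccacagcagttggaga
MALAT1: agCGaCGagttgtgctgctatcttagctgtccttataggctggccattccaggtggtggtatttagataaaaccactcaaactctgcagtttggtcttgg
ZFAS1: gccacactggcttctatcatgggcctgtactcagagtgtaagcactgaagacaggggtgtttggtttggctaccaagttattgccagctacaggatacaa
ENSG00000262413: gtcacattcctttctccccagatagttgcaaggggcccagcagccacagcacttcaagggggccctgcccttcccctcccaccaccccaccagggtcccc
HNRNPK-AS1: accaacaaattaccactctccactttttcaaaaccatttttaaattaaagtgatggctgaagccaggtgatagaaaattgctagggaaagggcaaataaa
The number of CpGs in these windows was 7 at LINC03015, 3 at MIR17HG, 2 at MALAT1 and 0 at the other three. Strong peaks were found at both ends of this range, since LINC03015 had a fold enrichment of 7.19 and ENSG00000262413 one of 9.73.

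The strongest peaks at lncRNA promoters lay largely next to snRNA genes. Of the 391 peaks, 9 had an snRNA gene in the peak or within 1 kb of the summit, at 7 distinct genes. The first 50 bases of 5 of these genes are shown on the strand of the snRNA, because the lncRNA named at such a peak often has no symbol of its own. For the U1 family, capitals mark bases that differ from RNU1-1 when both are lined up from the first base without gaps. RNU2-63P, of the U2 family, is in lower case. The positions on hg19 are chr1:16840731-16840780, minus strand for RNU1-1, chr1:148241465-148241514, plus strand for RNVU1-14, chr1:145382757-145382806, plus strand for RNVU1-6, chr17:56736617-56736666, minus strand for RNU1-60P and chr2:88316017-88316066, minus strand for RNU2-63P.
RNU1-1: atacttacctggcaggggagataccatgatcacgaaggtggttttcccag
RNVU1-14: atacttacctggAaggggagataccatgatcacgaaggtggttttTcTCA
RNVU1-6: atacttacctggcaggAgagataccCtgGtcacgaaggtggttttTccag
RNU1-60P: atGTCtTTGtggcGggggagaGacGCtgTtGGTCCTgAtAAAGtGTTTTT
RNU2-63P: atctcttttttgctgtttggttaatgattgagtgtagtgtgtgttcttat
The variant U1 genes RNVU1-14 and RNVU1-6 shared 45 and 46 of the 50 bases with RNU1-1, and RNU1-60P, named as a pseudogene, shared 22. RNU2-63P and RNU1-122P are also named as pseudogenes, and RNU1-122P, whose bases are not shown, shared 13.

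Peak strength at lncRNA promoters ranged from 2.39 to 18.0, with a median fold enrichment of 4.53 (95% interval of the median 4.38 to 4.68, interquartile range 3.59 to 5.49). The median was 4.34 for peaks at protein-coding TSSs (4.31 to 4.40) and 4.32 for the remaining peaks (4.23 to 4.33). A fold enrichment of at least 5 was reached by 142 of the 391 peaks (36.3%, 31.7 to 41.2%), beside 30.1% of all goat antibody peaks. A value of 8 was reached by 18 peaks (4.60%, 2.93 to 7.16%), beside 2.78% of all goat antibody peaks and 3.83% at protein-coding TSSs. The median width was 372 bp. In sequence that occurs more than once the position of a peak is uncertain. The 32 bp at the summit had further copies in the genome for 21 of the 391 peaks (5.37%, 3.54 to 8.07%). This share was 3.18% for all goat antibody peaks and 1.48% at protein-coding TSSs.

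The highest fold enrichment, 18.0, was at ENSG00000290039 on chromosome 17 (56735494 to 56737130). This lncRNA model of 182 bp contains RNU1-60P, named as a U1 pseudogene, and lies inside TEX14 on the same strand. The peak of 15.1 at ENSG00000285646 spanned the U5 gene RNU5E-1. ENSG00000287670 had 2 peaks, of 12.4 and 12.0, on either side of its TSS and next to RNU2-63P, named as a U2 pseudogene. The summit of the second of these occurred in 10 copies. ENSG00000276216, next to RNVU1-14, also had 2 peaks, of 11.7 and 8.35, and the summit of the weaker one occurred in 5 copies. Peaks of 11.4 at ENSG00000261135, next to RNU1-1, and of 10.7 at ENSG00000287190, which contains RNVU1-6, completed this group among the strongest. The summit at ENSG00000261135 had 4 copies. The ninth peak, at ENSG00000224481 next to RNU1-122P, also named as a pseudogene, was close to the median at 4.44.

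In all, 6 of the 10 strongest and 8 of the 16 strongest peaks had an snRNA neighbour. The snRNA share was 2.30% of the 391 peaks (1.22 to 4.32%), against 0.218% of peaks at protein-coding TSSs (0.0931 to 0.509%) and 0.398% of the remaining peaks (0.267 to 0.591%), and these intervals did not overlap. The 9 peaks lay at 7 distinct snRNA genes, which the interval does not take into account. How often lncRNA start sites without a peak have an snRNA gene nearby was not counted. In 4 of the 9 cases the snRNA gene lay within the lncRNA gene model. Signal from the 2 genes cannot be told apart in such a peak. Small RNA genes of any class were found at 19 of the 391 peaks, beside 2.19% of all goat antibody peaks. The other 10 were next to 5 snoRNA genes, 3 miRNA genes and 2 genes of other small RNAs, RNY5 (6.32) and VTRNA1-1 (3.31), which encode a Y RNA and a vault RNA. Only small RNA genes in the annotation used were counted. For example, none was counted at SNHG1. Without these 19 peaks the median fold enrichment was 4.47 (4.34 to 4.66).

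**Figure D1:**
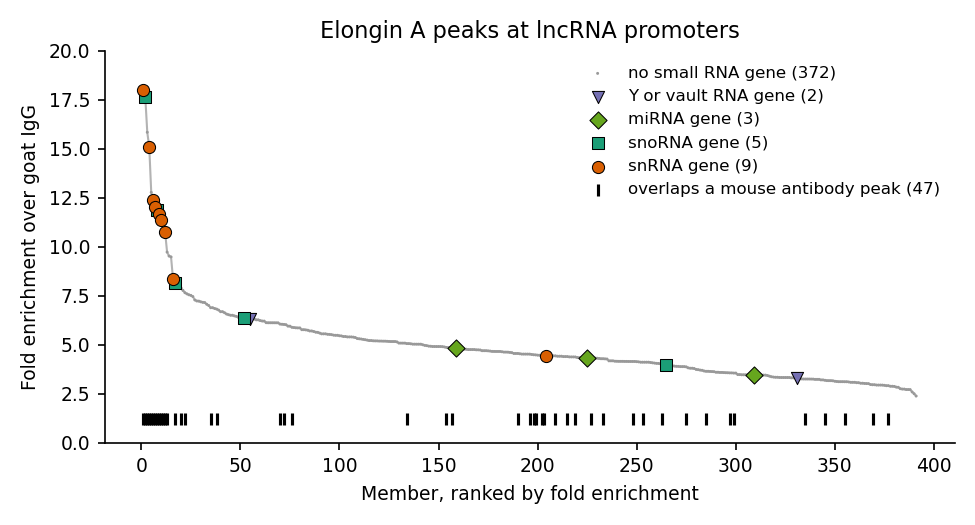
Fold enrichment over goat IgG (vertical axis) of the 391 lncRNA promoter peaks in order of rank (horizontal axis). Coloured symbols mark peaks with a small RNA gene in the peak or within 1 kb of the summit, and black ticks mark the 47 that overlap a mouse antibody peak. The snRNA neighbours (orange) lie between 8.35 and 18.0 except for 1 at 4.44.

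Other strong peaks had no snRNA neighbour. The second strongest, 17.6 at ENSG00000233538, was 6437 bp wide and had its summit 684 bp from a transcript end of NCL, which encodes nucleolin. It also spanned the snoRNA gene SNORA75. The peak of 15.8 at ENSG00000290122 lay inside CROCC, which encodes rootletin. ENSG00000262202 had a peak of 11.2. The peak of 9.73 at ENSG00000262413 had its summit 146 bp from a transcript end of ARHGDIA. LINC03081 (9.53) and ENSG00000271780 (9.48) completed the 15 strongest. Signal of the lncRNA promoter and of the nearby protein-coding transcript end cannot be told apart at ENSG00000233538 and ENSG00000262413. Over all 391 peaks, 31 lay within 1 kb of such an end (7.93%, 5.64 to 11.0%). This share was below the 12.2% of all goat antibody peaks and the 22.3% of peaks at protein-coding TSSs.

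Genes that host snoRNAs were the class of lncRNA most often marked. At least 1 peak was present at 11 of 28 snoRNA host genes (39.3%, 23.6 to 57.6%), beside 2.32% of the 15369 lncRNA genes that have a TSS more than 1 kb from every protein-coding TSS (356 genes). For protein-coding genes the share was 11.3%. Among peaks that met the rule, SNHG1, whose introns hold several snoRNAs, had the strongest (12.8), which was 5303 bp wide. SNHG25 had a peak of 11.9 next to SNORD104, and ZFAS1 one of 8.17 over SNORD12B. SNHG26 (7.23), SNHG7 (6.45), SNHG8 (6.37), SNHG16 (6.12) and SNHG29 (5.74) followed, each with a single peak that met the rule. Between their ends, SNHG29 held 4 peaks of up to 13.4, SNHG26 3, SNHG8 and SNHG16 2 each, and SNHG7 1. The summit sequence at SNHG8 occurred in 547 copies, so the position of that peak is uncertain. SNHG12 had 3 peaks, of 6.36, 5.15 and 4.70, and EPB41L4A-AS1 had 1 of 3.95 next to SNORA13. The growth-arrest transcript GAS5 and also DANCR, CYTOR and SNHG5 had no such peak. At GAS5 start sites, mouse antibody peaks of 5.03 and 4.70 over mouse IgG each overlapped a goat antibody peak. GAS5 therefore counts as unmarked only under the rule used here. The 12 peaks nearest to a snoRNA host had a median fold enrichment of 6.36.

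The miRNA host genes, named MIR and HG, had a peak at 5 of 75 (6.67%, 2.88 to 14.7%). MIR17HG, the host of the miR-17-92 cluster, had peaks of 4.87 and 4.65. MIRLET7BHG had peaks of 4.93 and 4.66, MIR200CHG, named for the epithelial miRNA miR-200c, had one of 5.52, and MIRLET7IHG and MIRLET7A1HG had peaks of 3.24 and 2.74. The remaining classes of symbol lay closer to the share of all lncRNA genes. Antisense (-AS) genes had a peak in 44 of 1209 cases (3.64%, 2.72 to 4.85%), intergenic (LINC) genes in 60 of 2213 (2.71%, 2.11 to 3.47%), and divergent transcripts (-DT) in 4 of 157 (2.55%, 0.995 to 6.37%). Genes with other symbols had one in 39 of 830 (4.70%, 3.46 to 6.36%), and genes known by identifier only in 193 of 10857 (1.78%, 1.55 to 2.04%). The strongest antisense peaks were at KRTAP5-AS1 (7.17), BCAN-AS2 (7.15) and HNRNPK-AS1 (7.01), the strongest LINC peaks after LINC03081 at LINC02939 (7.66) and LINC01004 (7.60), and the strongest divergent transcript peak named here at GAPDH-DT (4.93).

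**Figure D2:**
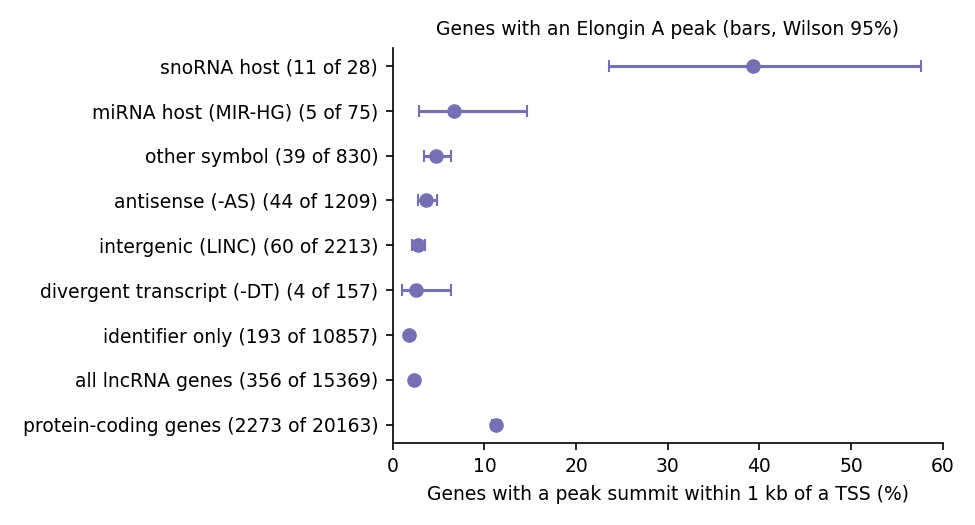
Share of genes with a peak summit within 1 kb of a TSS (horizontal axis, %) for each class of lncRNA symbol, all eligible lncRNA genes and all protein-coding genes. Points are shares and bars are Wilson 95% intervals, and the snoRNA hosts (39.3%) lie above every other class.

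These shares rose with the number of annotated start sites, which gives a gene more windows in which a peak can fall. Genes with 1 TSS had a peak in 1.51% of cases (1.29 to 1.76%), genes with 2 to 4 in 2.55% (2.06 to 3.15%) and genes with 5 or more in 6.04% (5.07 to 7.17%). Genes with a peak had a median length of 10.8 kb, against 7.08 kb without. The part of start site number and length in the difference between classes was not tested. By area, the windows around lncRNA start sites made up 1.47% of the ungapped genome and held 9.27 peaks per Mb. The density was 18.1 per Mb around protein-coding start sites and 2.24 per Mb elsewhere.

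Several well-known lncRNAs carried more than 1 peak. MALAT1, an abundant nuclear RNA of nuclear speckles, had peaks of 6.89, 6.57, 5.89, 3.58 and 2.96 at its start sites. TALAM1, its antisense partner, had one of 6.82, and reads in this region cannot be assigned to a strand. NEAT1, the scaffold of paraspeckles, had peaks of 6.21, 6.04 and 4.38. No peak met the rule at NORAD, KCNQ1OT1, OIP5-AS1, MEG3, JPX or FTX, which left 2 of 8 abundant nuclear lncRNAs marked. TUG1 was also on this list but is typed as protein-coding in the annotation and was not counted, and genes typed lincRNA rather than lncRNA were not counted in any group.

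Among intestinal or colorectal cancer lncRNAs, 6 of 12 had a peak, beside 2.32% of all eligible lncRNA genes and 6.04% of those with 5 or more start sites. LINC00511 had 9 peaks, of 3.34 to 6.32, spread over a gene of 350380 bp. CASC15 (6.35), LINC01133 (4.74), HOTAIRM1 (4.53) and CRNDE (3.60) each had 1 that met the rule, and MIR17HG was the sixth. UCA1, H19, HOTAIR, HOTTIP, FENDRR and LINC00460 had none. Of 4 lncRNAs of the p53 response, only LINC-PINT was marked (5.46 and 5.45), and PURPL, PANDAR and MIR34AHG were not. Of 9 lncRNAs typical of brain, muscle, blood or other tissues, such as MIAT, SOX2-OT and MIR155HG, 0 had a peak (upper limit of the interval 29.9%). With lists of this size the intervals of the shares overlapped (25.4 to 74.6% for the intestinal list). The gene lists were written with earlier results of these data known, so their shares describe the lists and cannot serve as a test.

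Some of these genes held many peaks over their whole span, the 1-kb windows included. LINC-PINT had 32 peaks between its ends, HOXB-AS3 22, MIRLET7BHG and LINC00513 20 each, LINC00511 15 and MALAT1 7. Only 2 of those in LINC-PINT, of 318913 bp, and 1 of those in HOXB-AS3, of 56785 bp, were among the 391. The one in HOXB-AS3 lay inside HOXB3 and HOXB6, so a count over a span can include peaks of other genes. LINC00513 lies within the span of LINC-PINT, so its peaks are counted in both. Most genes were not of this kind. Of the 356 marked genes, 250 had 1 peak in their span, 61 had 2 and 45 had 3 or more. Another goat antibody peak lay within 2 kb of 91 of the 391 peaks (23.3%), beside 22.3% of peaks at protein-coding TSSs and 18.4% of all goat antibody peaks.

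Summits at lncRNA promoters fell evenly on both sides of the start site over the whole window, with 198 upstream and 193 downstream (49.4% downstream, 44.4 to 54.3%). Within 200 bp of the TSS, 86 of 146 summits were downstream (58.9%, 50.8 to 66.6%). The share was 59.0% (55.9 to 62.0%) for summits within 200 bp of a protein-coding TSS. Within 500 bp it was 48.9% (43.1 to 54.8%) at lncRNA promoters and 46.2% (43.9 to 48.5%) at protein-coding TSSs. The median distance to the TSS was 301 bp, against 242 bp for the protein-coding set. The side depended on which TSS was nearest. For the 208 peaks nearest to the outermost TSS of the gene, 39.4% were downstream (33.0 to 46.2%), and for the 183 nearest to an internal TSS, 60.7% (53.4 to 67.4%). Within 200 bp these shares were 48.6% (37.6 to 59.8%) and 69.4% (58.0 to 78.9%), so the downstream excess there was seen at internal start sites only. Downstream of an outermost TSS, another TSS of the same gene can be the nearer one, which lowers the outermost share by construction.

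**Figure D3:**
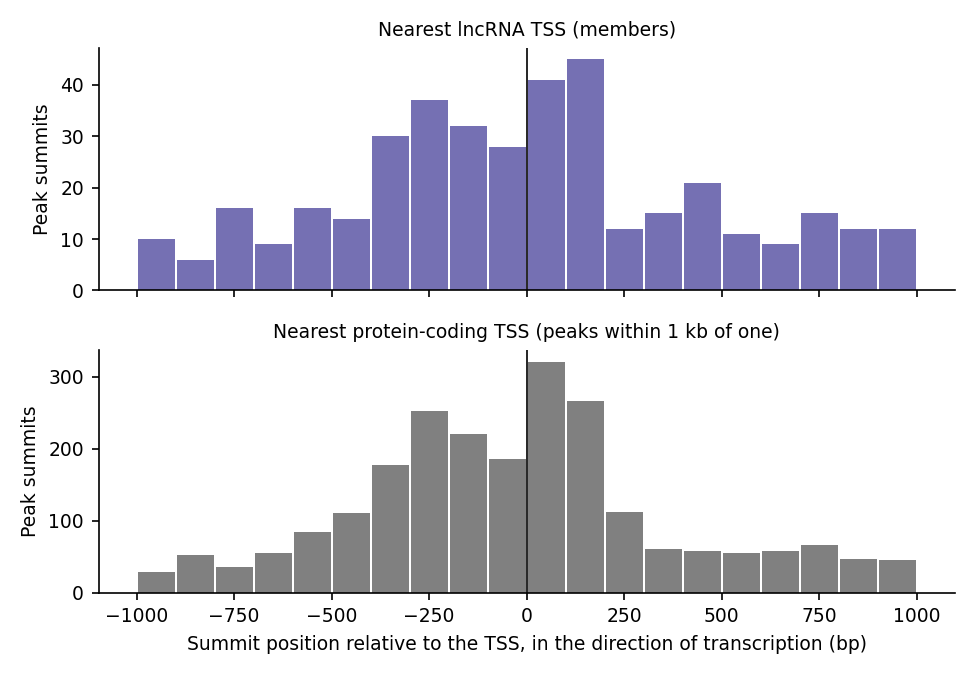
Number of peak summits (vertical axes) in 100-bp steps from 1000 bp upstream to 1000 bp downstream of the nearest TSS (horizontal axis). Upper panel, the 391 lncRNA promoter peaks. Lower panel, the 2295 peaks at protein-coding TSSs, and both have their highest bars in the first 200 bp downstream.

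The distance to the nearest protein-coding start site varied widely. The nearest protein-coding TSS was over 20 kb away for 204 peaks (52.2%), at 5 to 20 kb for 94, at 2 to 5 kb for 50 and at 1 to 2 kb for 43. A summit far from such a start site can still lie inside a protein-coding gene, as at ENSG00000290039 in TEX14. In 23 of the closest 43 the lncRNA and the protein-coding gene were arranged head to head. The median fold enrichment was 4.16 in this closest group and 4.44 in the farthest. Altogether 290 summits (74.2%) lay outside protein-coding genes, 83 inside one on the opposite strand from the lncRNA, 17 inside one on the same strand and 1 inside genes on both. The share inside was 25.8% (21.7 to 30.4%), beside 61.9% of all goat antibody peaks. Among peaks away from both kinds of start site it was 59.0%. Inside a host gene, its signal and that of the lncRNA promoter cannot be told apart. Inside protein-coding genes the median fold enrichment was 4.38 (4.11 to 4.63) and outside 4.56 (4.40 to 4.76).

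The peaks nearest to the limits of the rule ranged from 3.79 to 6.21 in fold enrichment. Just inside 1 kb from the lncRNA TSS were those of LINC02542 (988 bp, fold enrichment 3.79) and OVAAL (996 bp, 5.53), and just outside were those of ENSG00000273998 (1001 bp, 4.42) and ENSG00000268375 (1021 bp, 3.88). Just far enough from a protein-coding TSS were ENSG00000273226, 1005 bp from RPS6 (6.21), and PRDM10-DT, 1007 bp from PRDM10 (4.11). MAP4K3-DT, 985 bp from MAP4K3 (4.55), was just too close.

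The second antibody also gave a peak at each of the 13 strongest lncRNA promoter peaks. Overlap of at least 1 bp with a mouse antibody peak was found for 47 of the 391 (12.0%, 9.16 to 15.6%), beside 8.33% of all goat antibody peaks. The share was 9.28% (8.16 to 10.5%) at protein-coding TSSs and 7.72% (7.08 to 8.42%) for the remaining peaks, so the interval for lncRNA promoters overlapped the former but not the latter. Without the 19 peaks with a small RNA neighbour the share was 9.95% (7.30 to 13.4%), which overlapped both. The next in strength, LINC03081 and ENSG00000271780, were not shared. With a fold enrichment of 8 or more, 14 of 18 lncRNA promoter peaks were shared (77.8%, 54.8 to 91.0%), against 16 of 88 at protein-coding TSSs (18.2%, 11.5 to 27.5%) and 33 of 136 of the rest (24.3%, 17.8 to 32.1%). Of these 18 peaks, 11 had a small RNA neighbour. Without annotated small RNA neighbours 4 of 7 were shared (57.1%, 25.05 to 84.2%), against 13 of 83 (15.7%, 9.39 to 24.98%) and 20 of 118 (16.9%, 11.2 to 24.7%). The lower bound for lncRNA promoters lay just above the upper bounds of both other groups. SNHG1 was among these 4 because none of its snoRNAs was in the annotation used. The separation therefore cannot be read as one without small RNA genes. Below a fold enrichment of 8 the intervals of the lncRNA and protein-coding groups overlapped in every step of strength. Those of the lncRNA group and the rest also overlapped, except from 4 to 5. There the shares were 12.5% (7.72 to 19.6%) and 6.38% (5.34 to 7.59%). Shared lncRNA promoter peaks had a median width of 509 bp (385 to 751 bp), against 364 bp (346 to 389 bp) for those not shared. A wide peak can meet a 1-bp overlap more easily, and the part of width in these shares was not tested.

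**Figure D4:**
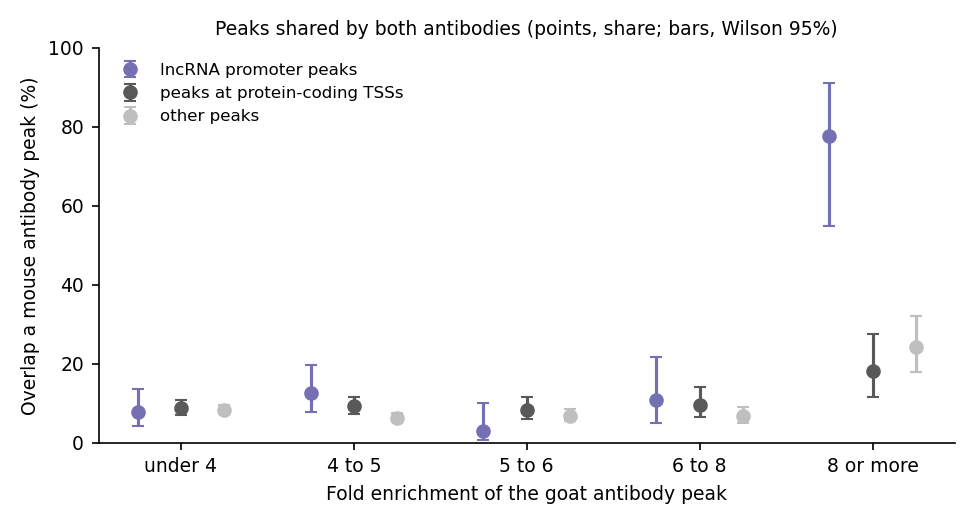
Share of goat antibody peaks that overlap a mouse antibody peak (vertical axis, %) by fold enrichment of the goat antibody peak (horizontal axis) for lncRNA promoters, protein-coding TSSs and other peaks. Points are shares and bars are Wilson 95% intervals, and the lncRNA group stands at 77.8% in the highest step.

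The mouse antibody had its highest lncRNA promoter values at places with a strong goat antibody peak. Its fold enrichment over mouse IgG was 12.1 at ENSG00000261135, 11.2 at ENSG00000262202, 10.9 at ENSG00000290039, 9.25 at ENSG00000285646 and 9.19 at ENSG00000276216. At NEAT1 it was 6.26, at the first MALAT1 peak 5.59, at SNHG1 6.09 and at ZFAS1 3.82. When the same rule was applied to the mouse antibody list itself, 103 of its 2338 peaks lay at lncRNA promoters (4.41%, 3.65 to 5.31%). Of these 103, only 47 overlapped a goat antibody peak of any kind, and 42 overlapped one at a lncRNA promoter. The strongest without a goat antibody peak was at ENSG00000273162 (7.15). The values of the 2 antibodies are over different IgG libraries, so only their order within a list can be read.

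ChIP-seq peaks overlapped 11 of the 391 (2.81%, 1.58 to 4.97%), beside 0.837% of all goat antibody peaks, 1.13% (0.774 to 1.65%) at protein-coding TSSs and 0.597% (0.431 to 0.825%) of the rest. The interval for lncRNA promoters overlapped that for protein-coding TSSs. Of these 11, 6 had an snRNA neighbour. Their ChIP-seq fold enrichment over input was 26.8 at ENSG00000285646, 25.2 at ENSG00000287190, 16.2 at ENSG00000287670, 15.96 at ENSG00000276216, 11.2 at ENSG00000290039 and 6.39 at ENSG00000224481. The other 5 were at ENSG00000290122 (10.3), ENSG00000262413 (6.94), MIRLET7BHG (6.37) and 2 start sites of MALAT1 (4.52 and 3.73). Without small RNA neighbours the share was 1.34% (0.575 to 3.11%). By the same rule, 12 of the 186 ChIP-seq peaks lay at lncRNA promoters (6.45%, 3.73 to 10.9%).

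Lastly, the sequence of lncRNA promoter peaks lay between that of protein-coding promoters and that of the other peaks. CpG content is given as observed over expected CpG in 300 bp around the summit, where CpG islands have high values. The median was 0.312 (0.270 to 0.335) at lncRNA promoter peaks, 0.572 (0.552 to 0.595) at protein-coding TSSs and 0.191 (0.187 to 0.195) at the other peaks. The 14449 lncRNA TSSs without a peak had a median of 0.246. A value of 0.6 or more was found at 66 of the 391 summits (16.9%, 13.5 to 20.9%) and at 12.3% of lncRNA TSSs without a peak (11.8 to 12.9%). Windows at TSSs without a peak were centred on the TSS rather than on a summit. LINC03015 had 1.00 and HNRNPK-AS1 had 0. The median fold enrichment was 4.54 (4.16 to 4.91) at 0.6 or more and 4.49 (4.35 to 4.70) below it, with overlapping intervals. CpG-rich summits were closer to the TSS, at a median of 171 bp against 327 bp.

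**Figure D5:**
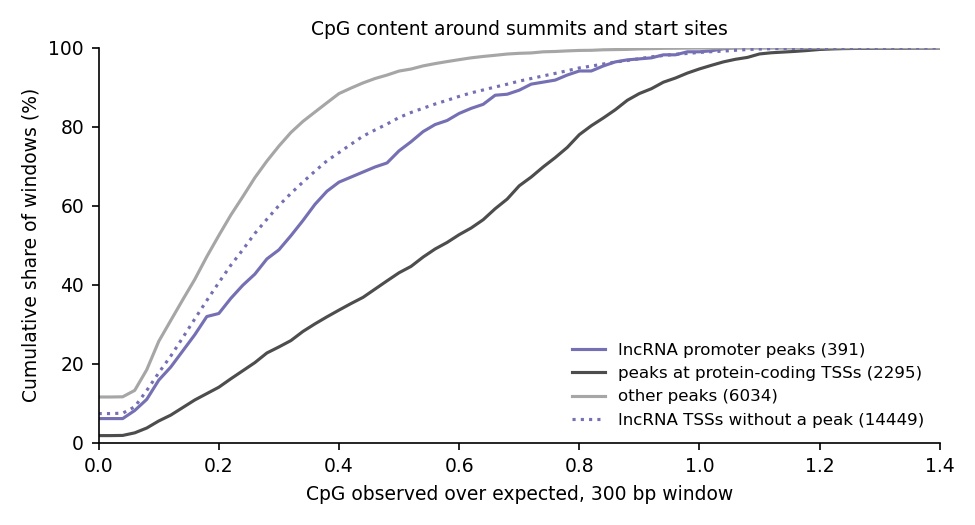
Cumulative share of 300-bp windows (vertical axis, %) up to each value of CpG observed over expected (horizontal axis). Solid lines are peak summits and the dotted line is lncRNA TSSs without a peak, and the lncRNA promoter peaks, with a median of 0.312, run between the protein-coding and the other peaks.

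Short motifs were counted as exact matches on either strand in the same windows. The GC box GGGCGG, bound by SP1, was found at 15.3% of lncRNA promoter peaks (12.1 to 19.3%), 31.7% of peaks at protein-coding TSSs (29.8 to 33.7%), 5.22% of the others (4.69 to 5.81%) and 13.6% of lncRNA TSSs without a peak (13.1 to 14.2%). The AP-1 motif TGANTCA showed the opposite order among peaks, at 15.6% (12.3 to 19.5%), 9.80% (8.65 to 11.1%) and 21.7% (20.7 to 22.8%), and was present at 11.3% of lncRNA TSSs without a peak (10.8 to 11.8%). The peak windows are centred on summits and those without a peak on the TSS, so the last share is not a matched comparison. TATAAA was found at 17.6% of lncRNA promoter peaks (14.2 to 21.7%) and 17.2% of lncRNA TSSs without a peak (16.6 to 17.8%). The ETS motif CCGGAAG was found at 2.56% of lncRNA promoter peaks (1.40 to 4.64%), against 7.06% at protein-coding TSSs (6.08 to 8.18%). Its share was 0.878% at the other peaks (0.672 to 1.15%) and 3.07% at lncRNA TSSs without a peak (2.80 to 3.36%). For CCAAT, bound by NF-Y, the shares were 33.8, 35.8, 34.7 and 35.7% in the same order of 4 sets. Other motifs are given in that order too. The E-box CACGTG had shares of 5.88, 5.58, 3.22 and 4.79%. Those of the YY1 motif AAGATGG were 5.37, 6.49, 4.99 and 6.01%. For the TCF/LEF motif CTTTGAT they were 4.09, 3.36, 6.10 and 3.90%. The CRE part TGACGTC had 2.56, 2.40, 0.713 and 1.27%, and the NRF1 part TGCGCAT 2.05, 2.48, 0.530 and 1.13%. Among the windows printed above, the E-box was found at LINC03015.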

How the data were processed

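Elongin A was mapped in DLD1 cells, and 3 peak lists were used. The authors used Bowtie2 for alignment to hg19 and Picard to take out duplicates. Peaks were called against IgG or input by MACS2 (version 2.1.1, default settings). How the 2 goat antibody replicates were combined is not given in the sources used here. The deposited fold enrichment compares the summit with its local background, as a ratio. The −log10 q-value, also as deposited, served only for limits and ties, and the deposited score and p-value column were not used.

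Positions were converted to count from 1. All transcripts of GENCODE release 44, in its GRCh37 mapping, gave the start sites, and GRCh37 the sequence. A small RNA gene was counted in the peak or within 1 kb of the summit. Overlap needed 1 bp. Shares have Wilson intervals and medians order-statistic intervals, at 95%. No test between groups was made, since the lists hold no replicate values. The members and gene lists were chosen with earlier results of these data known. The text names the 15 strongest peaks, the 3 strongest of each symbol class, those overlapping ChIP-seq, those at the limits and all in the lists, and SNHG5 and other unmarked list genes as examples. Genes on chromosome 8 are not named, and some sequence windows are not reported here. HNRNPK-AS1 and LINC03015 windows were chosen after their CpG values were seen, as were the genes with many peaks and the small RNA genes. Classes equalled a direct search for 200 of 200 peaks tested, and 100 of 100 planted overlaps were recovered on simulated data. Python 3.11.15, numpy 2.4.6, scipy 1.17.1, pandas 2.3.3, pysam 0.24.0, matplotlib 3.10.9 and samtools 1.23.1 were used. The alternatives were other q-value, strength and distance limits, the peak centre, basic transcripts, merged or unique peaks, a 50% overlap and a wider window. The RNA-seq, 4sU-seq and RNAPII experiments were not analysed here.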

Additional observations from a re-analysis of the deposited data

How the results depend on the processing

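Of 91 recomputed values, 76 stayed within the interval of the reported value (for the number of peaks, within 1.5 times) and 15 moved, and the cause was not tested beyond the construction of each setting. With a q-value under 0.001 the median fold enrichment was 4.86 and the share of lncRNA genes with a peak 1.88%. With a fold enrichment of at least 5, which fixes the strength, 142 peaks remained, with a median of 6.04, a gene share of 0.950%, 54.9% of summits downstream and 5.63% overlapping ChIP-seq. With a lncRNA TSS within 500 bp the gene share was 1.70% and the median CpG observed over expected 0.337. With basic transcripts only, 33.8% of summits lay inside protein-coding genes. A pair of settings was chosen after seeing the data. Without small RNA genes 1.34% overlapped ChIP-seq. With the outermost TSS nearest, 208 peaks remained, with a gene share of 1.30%, 39.4% downstream and 35.1% inside protein-coding genes. The mouse antibody share stayed between 9.95 and 15.5% under its 12 settings. No paired analysis was possible because the peak lists do not separate the replicates, and for the same reason no replicate could be left out. Depth is unknown, so a gene without a peak is not shown to lack Elongin A.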
